A study of Mus musculus with 50 samples.

Results

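The youngest hearts of a study of slowly progressing heart failure (HF) were compared here. Samples were taken by their deposited titles, 5 Tgαq*44 and 5 FVB mice of 4 months, which is 10 of the 50 mice and a pair of its 10 groups. FVB mice were the wild-type controls, and Tgαq*44 mice are FVB mice of a single transgenic line that overexpresses a constitutively active Gαq protein in cardiomyocytes only. All 10 mice were female and untreated, and no allele or agent was shared by both strains. RNA of the apex of the left ventricle was sequenced from each heart as a polyA-selected library, and the number of reads on the exons of each gene was deposited. The other 40 mice were of the same strains at 8, 10, 12 and 14 months, and they enter below only to show where the strain difference at 4 months was different from the later one. In a piece of ventricle, fewer cells of a type and less RNA per cell cannot be told apart.

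Gαq is the G-protein subunit through which receptors for angiotensin II, endothelin and noradrenaline activate phospholipase C in cardiomyocytes. The products of phospholipase C release calcium and activate protein kinase C, and calcium in turn activates the phosphatase calcineurin. A heart under such a drive is known to switch on immediate early genes, natriuretic peptides and other genes of the foetal heart, while neighbouring fibroblasts lay down matrix and macrophages gather. The adult heart lives mainly on fatty acids, and the loss of genes of fatty acid oxidation is a known mark of its failure.

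Total counts per library were 9772096 to 15920877 in FVB and 13639021 to 21395747 in Tgαq*44 mice of 4 months. The markers of ventricular cardiomyocytes were high in every library, with a summed level of 71524 to 105129 CPM (counts scaled to a common library size with TMM factors) in FVB and 62046 to 77732 CPM in Tgαq*44 mice. The 4-month-old FVB mice stood apart from the Tgαq*44 mice of 4 months and from older FVB mice in genes that respond to glucocorticoids. A score of 23 such genes, their mean standardised level in a mouse, was 0.80 to 1.72 in the 5 FVB mice of 4 months and -0.61 to -0.16 in the Tgαq*44 mice of 4 months. In FVB mice of 8 to 14 months it lay between -0.72 and 0.31, and in Tgαq*44 mice of 8 to 12 months between -0.68 and 0.36. Tgαq*44 mice of 14 months, at -0.42 to 1.32 with a median of 0.98, overlapped with the FVB mice of 4 months. The score thus separated the strains at 4 months without overlap, so that the part of the strain and the part of the score in a difference cannot be told apart at this age. For the gene lists below, a count "with the score" is the number of members called by edgeR once the score was a covariate, a fit in which the median standard error of a log2 fold change was 0.257, against 0.172 without it.

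Of 15129 genes tested, 661 were differentially expressed genes (DEGs) between the strains at 4 months, 452 of them higher and 209 lower in Tgαq*44 mice. A DEG had to differ by more than 1 on the log2 scale, at an edgeR adjusted p under 0.05, and 4.37% of all genes did (2.99% higher, 1.38% lower). Without a fold minimum, 2730 genes (18.0%) passed the adjusted p, 1455 of them higher (9.62%) and 1275 lower (8.43%). The CPM values of the 5 and 5 mice did not overlap for 471 of the 661 DEGs, against 1689 of all genes tested (11.2%, with 6.07% higher and 5.09% lower). The 20 higher and 15 lower DEGs named for the largest change were picked among those without overlap. The median log2 fold change of all genes was 0.00. Scaling by library totals alone moved this median by 0.15 and gave 641 higher and 147 lower DEGs, and 2652 higher and 608 lower genes without a fold minimum. With the glucocorticoid score as a covariate, 198 DEGs were found, of which 138 were among the 661. Of 131 named genes outside the score that passed at 4 months, 53 also passed then, with strain differences in the same direction, among them those of Ccl7, Ccl2, Ccl8, Egr1, Egr2, Egr3, Nppa, Postn, Timp1 and Asns, and 78 did not, among them those of Ccl12, Tnc, Cd36 and Col1a1. Where a list of genes below had 0 members called in a direction by edgeR, limma-voom and DESeq2 called 0 there too, except among pericyte and smooth muscle markers, and at most 2 members had an unadjusted p under 0.05. DEGs coding for protein numbered 578, and the plot of fold change against level shows where the named genes lie.

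**Figure D1:**
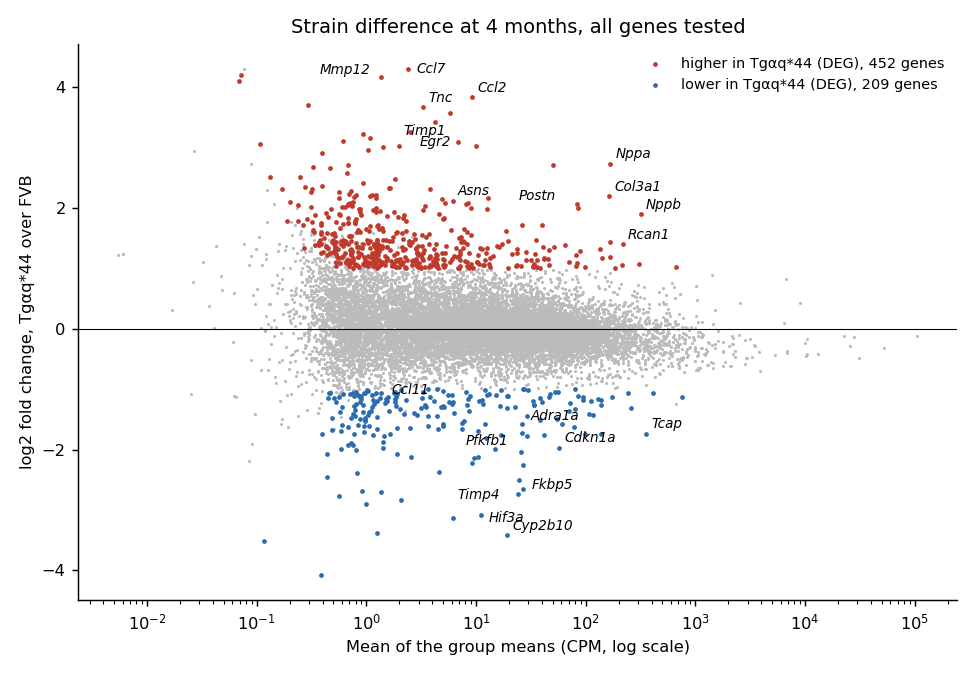
Strain difference of the 15129 genes tested at 4 months: log2 fold change of Tgαq*44 over FVB mice (vertical axis) against the mean of the group means in CPM (horizontal axis, log scale). Red and blue points are the 452 higher and 209 lower DEGs, grey points are the other genes, and the names mark genes described in the text, from Ccl7 (4.29) to Cyp2b10 (-3.42).

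Gnaq, the gene of Gαq, was not called, and a minority of the genes of its pathway were, among them the calcineurin target Rcan1, which rose. Gnaq lies at chr19:16132831-16387463 of GRCm38 and was at 25.6, 24.0, 26.2, 22.6 and 17.4 CPM in the 5 FVB mice, against 36.7, 36.1, 27.6, 27.9 and 26.3 CPM in the 5 Tgαq*44 mice. Each Tgαq*44 mouse was above the highest FVB mouse (no overlap), yet the log2 fold change of 0.42 ± 0.18 (standard error) did not pass the test (edgeR adjusted p = 0.11). With scaling by library totals it passed, at 0.58 (edgeR adjusted p = 0.024). Reads of the endogenous gene and of a transgene could fall together in this count, which is thus no measure of the transgene alone. Of 25 genes of Gq, protein kinase C and calcineurin signalling, 5 were higher and 2 lower, against 9.62% and 8.43% of all genes, and their median was 0.06 on the log2 scale. Without the first or the second Tgαq*44 mouse 3 were higher, with scaling by library totals 8, and with the score 1 was higher and 0 lower in edgeR.

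Rcan1 encodes an inhibitor of calcineurin that is itself switched on by calcineurin. It was at 121, 108, 125, 108 and 135 CPM in FVB and 228, 319.9, 284, 338 and 406 CPM in Tgαq*44 mice. The groups were well apart, with a log2 fold change of 1.40 ± 0.20 (edgeR adjusted p = 7.0e-07). Of its promoters in the RefSeq table (GRCm38.p6, 250 bases before to 50 after a transcript start), the one at chr16:92400029-92400328, minus strand, holds the letters TGACGTCA of a cyclic AMP response element, which stand in 1.79% of the 32851 promoters of the table (2.03% of genes have such a promoter). It is shown with these letters in capitals, since Rcan1 was the member of this list with the largest rise.
Rcan1: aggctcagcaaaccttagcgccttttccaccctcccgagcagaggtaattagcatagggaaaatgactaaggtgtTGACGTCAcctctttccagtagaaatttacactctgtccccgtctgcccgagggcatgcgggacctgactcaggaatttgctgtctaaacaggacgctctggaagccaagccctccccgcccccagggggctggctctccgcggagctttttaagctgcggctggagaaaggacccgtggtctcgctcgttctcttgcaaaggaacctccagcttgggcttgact
Rgs4, which shortens Gq signals, rose by 0.53 on the log2 scale (edgeR adjusted p = 0.0013). Rasd1, a small G protein described below, was at -1.67 on the log2 scale. Rgs2, another such brake on Gq, moved the other way, from 27.3, 18.9, 36.9, 20.9 and 13.2 CPM in FVB to 11.4, 8.85, 10.2, 9.59 and 8.34 CPM in Tgαq*44 mice. No Tgαq*44 mouse reached the lowest FVB mouse, and the log2 fold change was -1.27 ± 0.24 (edgeR adjusted p = 0.00010). Under the glucocorticoid covariate, 1 member of the list stayed past the threshold.

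The receptors and peptides that feed into Gq were lower or not called. Adra1a, the α1A-adrenergic receptor, was at 39.6, 37.4, 43.0, 51.4 and 25.6 CPM in FVB and at 14.0, 9.58, 17.8, 11.3 and 13.4 CPM in Tgαq*44 mice. All Tgαq*44 mice were below all FVB mice (log2 fold change -1.58 ± 0.18, edgeR adjusted p = 9.5e-09). Adra1b, the α1B receptor, fell by 0.71, and Agtr1a, a receptor of angiotensin II, fell by 0.74 on the log2 scale (edgeR adjusted p = 0.0014 and 0.0012). Edn3, an endothelin, was at 2.71 to 3.65 CPM in FVB and 0.773 to 1.59 CPM in Tgαq*44 mice, a log2 fold change of -1.42 ± 0.27 (edgeR adjusted p = 9.2e-05). Agt, angiotensinogen, had a log2 fold change of -0.95 (edgeR adjusted p = 0.015), which did not pass without the fifth FVB or the second Tgαq*44 mouse (-0.86 to -0.81, edgeR adjusted p = 0.050 to 0.055). Ace, the angiotensin-converting enzyme, was at 105 ± 25.5 CPM in FVB and 109 ± 22.2 CPM in Tgαq*44 mice (SD, n = 5 each), and its log2 fold change of 0.05 ± 0.16 was not called. In all, 0 of 16 renin-angiotensin and endothelin genes were higher and 3 lower in edgeR, and of 16 genes of adrenergic and cyclic AMP signalling 3 were higher and 5 lower. With the score, 1 of the former was lower, and 2 of the latter were higher and 1 lower. Among the latter, Grk5, a kinase that desensitises receptors, rose by 0.59 and Pde3a, a phosphodiesterase that breaks down cyclic AMP, had a log2 fold change of -0.58 (edgeR adjusted p = 7.1e-05 and 0.0012).

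Immediate early genes of the Egr family were among the largest rises of all genes. They encode zinc-finger transcription factors that are switched on within minutes of a growth signal. Egr2 was at 0.111, 0.338, 0.374, 0.492 and 1.04 CPM in FVB and 2.19, 5.37, 3.68, 4.44 and 7.16 CPM in Tgαq*44 mice. Its groups did not overlap, and its log2 fold change was 3.26 ± 0.53 (edgeR adjusted p = 1.3e-05). Egr3 was at 1.22, 2.30, 1.40, 2.11 and 3.86 CPM in FVB and 9.15, 19.9, 13.3, 16.7 and 29.8 CPM in Tgαq*44 mice, again without overlap (3.02 ± 0.45, edgeR adjusted p = 3.2e-06). Egr1 was at 9.00, 11.1, 9.53, 14.1 and 23.1 CPM in FVB and 24.5, 58.3, 109, 62.4 and 184 CPM in Tgαq*44 mice, and the lowest Tgαq*44 mouse was close to the highest FVB mouse (2.71 ± 0.49, edgeR adjusted p = 8.4e-05). In both strains the fifth mouse had the highest level of each of the 3 genes.

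Dusp5, a phosphatase that switches off the kinase ERK in the nucleus, was at 5.14 to 9.28 CPM in FVB and 13.0 to 21.9 CPM in Tgαq*44 mice (1.32 ± 0.24, edgeR adjusted p = 5.1e-05). Fos, Fosb and Junb, subunits of the transcription factor AP-1, had log2 fold changes of 1.63, 1.44 and 1.10, and their groups overlapped. The call of Fos was lost without the fifth Tgαq*44 mouse (1.22, edgeR adjusted p = 0.079), as was that of Junb without the fifth Tgαq*44 mouse (0.66, edgeR adjusted p = 0.12). Myc, a growth-promoting transcription factor, rose by 1.03 (edgeR adjusted p = 0.0075). Of 29 immediate early genes, 9 were higher and 1 lower, against 9.62% and 8.43% of all genes, and the median was 0.35. Atf3 (0.68), Nr4a1 (0.19), Jun (-0.05) and Dusp1 (-0.13), which are also switched on by stress, were not called. Zfp36, which destabilises the messenger RNAs of cytokines, was the lower one (-0.75, edgeR adjusted p = 0.027), a call lost without the third FVB or the first, the second or the fourth Tgαq*44 mouse (-0.72 to -0.61, edgeR adjusted p = 0.056 to 0.095). With the score, 9 members were higher, but not all of them the same ones. Dusp5, Fos and Junb did not pass there (edgeR adjusted p = 0.14, 0.059 and 0.44).

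A CArG box is the site of serum response factor, which is known to switch on immediate early genes. Of the 9 members that rose, 6 had a RefSeq promoter, and of these Egr2 and Dusp5 hold a CArG box on either strand, while 1.63% of all 32851 promoters do (1.81% of genes have such a promoter). Egr1, Egr3 and Myc have no entry. Those of Egr2 (chr10:67537619-67537918, plus strand, GRCm38.p6) and Dusp5 (chr19:53528895-53529194, plus strand) are shown, with the CArG boxes in capitals. Dusp5 has a pair of them side by side.
Egr2: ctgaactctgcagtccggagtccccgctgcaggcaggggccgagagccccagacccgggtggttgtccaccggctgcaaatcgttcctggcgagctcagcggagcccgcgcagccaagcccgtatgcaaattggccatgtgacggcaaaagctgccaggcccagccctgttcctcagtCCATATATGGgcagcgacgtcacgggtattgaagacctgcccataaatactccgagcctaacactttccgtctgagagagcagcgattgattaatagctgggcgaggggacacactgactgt
Dusp5: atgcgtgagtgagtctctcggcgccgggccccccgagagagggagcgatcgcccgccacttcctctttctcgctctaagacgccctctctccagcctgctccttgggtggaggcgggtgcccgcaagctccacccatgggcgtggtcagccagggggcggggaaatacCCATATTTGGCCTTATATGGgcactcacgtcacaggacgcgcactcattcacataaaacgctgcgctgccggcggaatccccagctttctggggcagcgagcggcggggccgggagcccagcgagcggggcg

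Chemokines that attract monocytes were among the genes with the largest rises. Ccl7 was counted in only 1, 3, 3, 2 and 4 reads of the 5 FVB mice and in 36, 103, 96, 104 and 51 reads of the 5 Tgαq*44 mice. In CPM it was at 0.111 to 0.417 in FVB and 1.97 to 6.28 in Tgαq*44 mice (4.29 ± 0.42, edgeR adjusted p = 1.7e-10). Every Tgαq*44 mouse was far above every FVB mouse. Ccl2 was at 0.667, 0.945, 0.187, 1.26 and 3.02 CPM in FVB and 8.93, 20.8, 19.3, 19.0 and 17.4 CPM in Tgαq*44 mice (3.83 ± 0.36, edgeR adjusted p = 7.0e-11). Ccl8 was at 2.22, 0.675, 0.467, 0.914 and 0.417 CPM in FVB and 8.77, 13.2, 8.79, 15.8 and 7.16 CPM in Tgαq*44 mice (3.57 ± 0.51, edgeR adjusted p = 1.5e-06). Ccl12 was at 1.00, 0.878, 0.467, 0.492 and 0.834 CPM in FVB and 5.92, 6.41, 7.78, 14.1 and 4.58 CPM in Tgαq*44 mice (3.42 ± 0.54, edgeR adjusted p = 8.6e-06). In none of these did the groups overlap.

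These 4 genes are neighbours, together with Ccl11 and Ccl1, in a stretch of 270.1 kb that begins at position 82035571 of chromosome 11 (GRCm38). Ccl11, the eosinophil attractant eotaxin, lies between Ccl7 and Ccl12 and differed in direction. It was at 1.89, 2.43, 2.43, 2.32 and 1.25 CPM in FVB and 0.658, 1.10, 1.19, 0.811 and 0.886 CPM in Tgαq*44 mice, and all Tgαq*44 mice were lower (-1.17 ± 0.28, edgeR adjusted p = 0.0018). Ccl1 had 0 counts in all 10 libraries. Elsewhere in the genome, Ccl22 rose by 2.96, Cxcl1 by 1.67 and Cxcl5 by 1.75 on the log2 scale, each without overlap (edgeR adjusted p = 6.2e-05, 0.00022 and 0.0075). Cxcl9 and Cxcl10, chemokines induced by interferon, had fold changes of 1.84 ± 0.57 and 2.58 ± 0.66 (edgeR adjusted p = 0.019 and 0.0041). Their groups overlapped, and the fourth Tgαq*44 mouse was highest in both, at 8.63 and 3.05 CPM. The call of Cxcl10 was lost without the fourth Tgαq*44 mouse (1.72, edgeR adjusted p = 0.079), and that of Cxcl9 without the second FVB or the fourth Tgαq*44 mouse (1.07 to 1.72, edgeR adjusted p = 0.052 to 0.20).

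**Figure D2:**
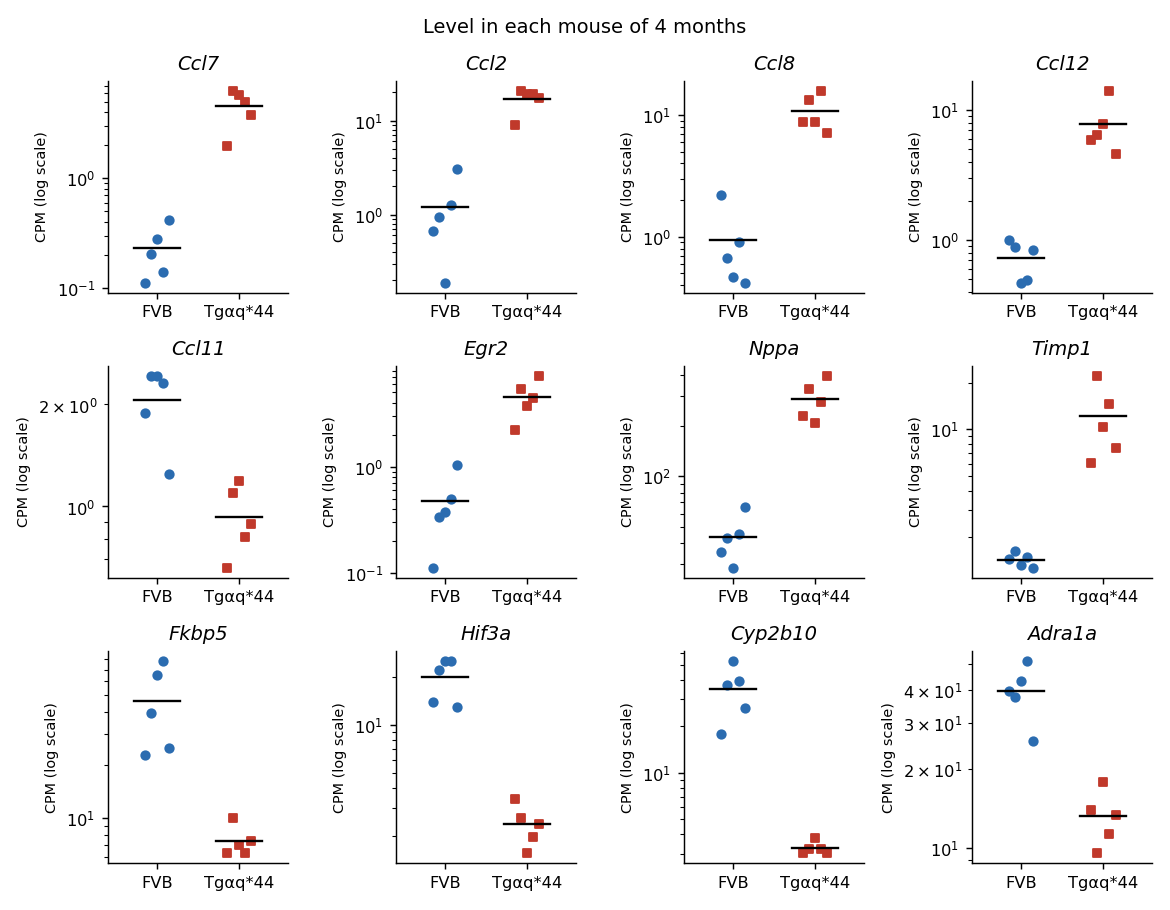
Level of 12 genes in each mouse of 4 months in CPM (vertical axis, log scale), FVB mice as blue circles and Tgαq*44 mice as red squares, with a line at each group mean (n = 5). The groups do not overlap in any of the 12, which for all but Ccl11 and Adra1a was a condition of their choice. Ccl11 is lower in Tgαq*44 mice while Ccl2, Ccl7, Ccl8 and Ccl12 are higher.

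Tnf and Il1b, the classic inflammatory cytokines, were rare in FVB hearts. Tnf had 1, 2, 0, 1 and 6 reads in the 5 FVB mice and 26, 17, 21, 54 and 28 reads in the 5 Tgαq*44 mice (3.21 ± 0.56, edgeR adjusted p = 3.1e-05). Il1b rose by 2.01 ± 0.52 with overlap (edgeR adjusted p = 0.0043), and Il1rn, the antagonist of its receptor, was at 0 to 0.521 CPM in FVB and 1.10 to 2.99 CPM in Tgαq*44 mice (3.15 ± 0.50, edgeR adjusted p = 6.0e-06). Cxcl14 was lower (-0.93, edgeR adjusted p = 0.0020). The complement genes C1qa, C1qb, C1qc, C3, C4b and C7 all rose, by between 0.52 (C1qa) and 1.16 (C7) on the log2 scale, though C1qa not without the third FVB or the second Tgαq*44 mouse (0.39 to 0.46, edgeR adjusted p = 0.070 to 0.088). Of 37 cytokines, chemokines and complement genes, 24 were higher and 2 lower, with a median of 0.79. With the score 12 were higher, and the median was 0.77. Of 36 interferon response genes 8 were higher, against 9.62% of all genes, led by Ifit1 (1.58, edgeR adjusted p = 0.00083), and of 18 genes of MHC class I and II 1, H2-DMb1 (1.43, edgeR adjusted p = 0.044), which was lost without the second, the fourth or the fifth FVB or the first, the third or the fourth Tgαq*44 mouse (1.20 to 1.37, edgeR adjusted p = 0.076 to 0.13). The interferon count was 5 without the second FVB mouse, 15 with scaling by library totals and 0 with the score in edgeR.

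Markers of macrophages were higher as well. Mmp12, macrophage elastase, had 1, 4, 2, 0 and 1 reads in the 5 FVB mice and 33, 70, 34, 65 and 23 reads in the 5 Tgαq*44 mice (4.16 ± 0.58, edgeR adjusted p = 6.4e-07). Gpnmb, a glycoprotein of lipid-laden macrophages, was at 0.556, 0.203, 0.561, 0.422 and 0.521 CPM in FVB and 2.14, 7.02, 2.02, 3.91 and 2.66 CPM in Tgαq*44 mice (3.01 ± 0.36, edgeR adjusted p = 1.7e-08). Neither gene overlapped between the groups. Fcgr1, an antibody receptor, rose by 1.78 and Adgre1, a surface marker of macrophages, by 1.29 on the log2 scale (edgeR adjusted p = 1.5e-06 and 5.1e-07). Ccr2, the receptor of Ccl2 on monocytes, was rare, at 0.667, 0.203, 0.467, 0.422 and 0.104 CPM in FVB and 1.59, 0.488, 1.25, 1.72 and 1.03 CPM in Tgαq*44 mice, and the lowest Tgαq*44 mouse lay below the highest FVB mouse (1.74 ± 0.48, edgeR adjusted p = 0.0076). Clec4n, a receptor for fungal sugars, rose by 2.47, Tlr1, a receptor for bacterial lipopeptides, by 2.41 and Ch25h, which makes 25-hydroxycholesterol, by 3.01. Lyve1, Cd163, Timd4 and Folr2, which mark macrophages resident in the heart, were between -0.28 and 0.67 and were not called. Of 15 macrophage and monocyte markers, 9 were higher and 0 lower in edgeR, and their summed level was 136 to 169 CPM in FVB and 190.0 to 260.0 CPM in Tgαq*44 mice, without overlap. With the score, 3 of the 15 were higher. The part of these cells in the rise of the chemokines was not tested.

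Other leukocytes were at low levels. The summed level of 6 T and NK cell markers was 2.95 to 4.56 CPM in FVB and 3.68 to 9.06 CPM in Tgαq*44 mice, and of the 6 Trac alone was called (1.41, edgeR adjusted p = 0.016), though not without the fourth FVB or the fourth Tgαq*44 mouse (1.13 to 1.26, edgeR adjusted p = 0.057 to 0.083). Of the listed neutrophil markers, 1 passed the filter on low counts, Csf3r (0.86, edgeR adjusted p = 0.0020). In edgeR, 0 of 6 B cell markers were called, with 1 at an unadjusted p under 0.05. Kit, a marker of mast cells that other cells of the heart also use, rose by 1.12 (edgeR adjusted p = 4.5e-07), while the mast cell proteases Mcpt4 (0.98) and Cma1 (0.45) were not called.

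Genes of the extracellular matrix rose broadly. Col3a1, the chain of type III collagen, was at 76.2, 83.8, 39.6, 42.2 and 52.0 CPM in FVB and 276, 498, 178, 192 and 200.0 CPM in Tgαq*44 mice. Each Tgαq*44 mouse had more than the highest FVB mouse (2.19 ± 0.27, edgeR adjusted p = 5.6e-08). Col1a1, a chain of type I collagen, was at 82.0, 126, 41.4, 70.4 and 131 CPM in FVB and 222, 393, 135, 174 and 289 CPM in Tgαq*44 mice, and the third mouse was the lowest of both groups (1.43 ± 0.29, edgeR adjusted p = 0.00037). Col8a2, a short-chain collagen, was rare, at 0 to 0.222 CPM in FVB and 0.773 to 1.46 CPM in Tgαq*44 mice (3.10 ± 0.52, edgeR adjusted p = 1.8e-05). Of 20 fibrillar and other collagens, 14 were higher and 0 lower in edgeR, with a median of 0.93. As a share of the counts of nuclear genes, these collagens took 0.0806, 0.0933, 0.0533, 0.0618 and 0.0897% in FVB and 0.196, 0.306, 0.140, 0.165 and 0.189% in Tgαq*44 mice. The means of 0.0757 ± 0.0175% and 0.199 ± 0.0637% (SD, n = 5 each) differed with an exact two-sided permutation p = 0.0079, the smallest this design allows (0.032 adjusted over the 4 shares tested).

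Among glycoproteins and proteoglycans, Tnc, the tenascin of injured tissue, was at 0.333, 0.945, 0.280, 0.351 and 0.313 CPM in FVB and 2.19, 13.9, 3.45, 6.87 and 4.06 CPM in Tgαq*44 mice (3.66 ± 0.57, edgeR adjusted p = 6.9e-06). The second Tgαq*44 mouse was the highest, and no mouse overlapped. Postn, periostin, a protein of activated fibroblasts, was at 34.3, 36.7, 28.3, 29.0 and 31.5 CPM in FVB and 141, 213, 104, 103 and 110.4 CPM in Tgαq*44 mice (2.07 ± 0.21, edgeR adjusted p = 4.9e-10). Cilp, a matrix protein that binds TGF-β, was at 2.00, 1.76, 1.03, 1.76 and 2.50 CPM in FVB and 6.36, 17.0, 3.39, 7.11 and 5.91 CPM in Tgαq*44 mice, the second of which stood highest (2.14 ± 0.34, edgeR adjusted p = 6.0e-06). Of 38 members, 22 were higher and 0 lower in edgeR (median 0.68). Decorin (Dcn, 0.47) and lumican (Lum, 1.07) were among them, whereas elastin (Eln, -0.01) and fibulin 5 (Fbln5, 0.11), which build elastic fibres, were not called. Of 20 basement membrane genes, 6 were higher and 1 lower, all with changes under 1 on the log2 scale, but 3 were higher without the second Tgαq*44 mouse and 2 with the score.

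Enzymes and inhibitors that shape the matrix moved apart. Timp1, an inhibitor of matrix metalloproteinases, was at 1.44, 1.62, 1.31, 1.48 and 1.25 CPM in FVB and 6.03, 22.3, 10.4, 14.5 and 7.60 CPM in Tgαq*44 mice (3.08 ± 0.34, edgeR adjusted p = 4.1e-09). Timp4, the inhibitor most typical of the heart, went from 32.7, 37.3, 52.8, 47.9 and 41.0 CPM in FVB to 8.22, 7.44, 7.73, 3.29 and 5.17 CPM in Tgαq*44 mice (-2.73 ± 0.35, edgeR adjusted p = 1.6e-07). Thus one inhibitor was higher and the other lower in every Tgαq*44 mouse than in any FVB mouse. Timp2 rose by 0.56 and Timp3 had a log2 fold change of -0.89 (edgeR adjusted p = 0.00019 and 0.00056). Mmp2 and Mmp14, a gelatinase and its activator at the membrane, rose by 0.93 and 1.05 (edgeR adjusted p = 3.3e-06 and 5.3e-05). Of 30 proteases and inhibitors, 13 were higher and 3 lower, and with the score 5 and 1. With the score Timp1 passed (2.30, edgeR adjusted p = 0.0016). Timp4 (-1.06, edgeR adjusted p = 0.14) and Timp3 (-0.004, edgeR adjusted p = 0.99) did not, so the lower member there was neither of them. Of 22 genes of collagen processing and crosslinking 8 were higher and 1 lower, with Loxl2, a lysyl oxidase, at 1.37 ± 0.17 (edgeR adjusted p = 4.8e-08) and Lox itself at -0.25 (not called). Of 21 integrins 7 were higher and 0 lower in edgeR, among them Itga11, a collagen receptor of fibroblasts, at 3.83 to 9.17 CPM in FVB and 10.4 to 15.6 CPM in Tgαq*44 mice (1.00 ± 0.21, edgeR adjusted p = 0.00035). With the score, 3 crosslinking genes and 2 integrins were higher.

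Fibroblast markers were higher with the matrix genes, 9 of 12 for fibroblasts and 8 of 13 for activated fibroblasts. Their summed level was 2369 to 2837 CPM in FVB and 3397 to 4309.9 CPM in Tgαq*44 mice for the former and 152 to 307 and 317 to 511 CPM for the latter, with no overlap in either. Meox1, a transcription factor of activated fibroblasts, rose by 1.71 and Runx1 by 1.05 on the log2 scale (edgeR adjusted p = 3.4e-09 and 0.00051). Tcf21 and Pdgfra, which mark fibroblasts at rest, had log2 fold changes of 0.55 and 0.51 with overlap (edgeR adjusted p = 0.036 and 0.032). The first was lost without the first, the second, the third or the fourth FVB or the second or the fifth Tgαq*44 mouse (0.49 to 0.53, edgeR adjusted p = 0.060 to 0.092), and the second without the fourth or the fifth FVB or the first, the third or the fourth Tgαq*44 mouse (0.38 to 0.51, edgeR adjusted p = 0.052 to 0.13). Acta2, the actin of myofibroblasts and smooth muscle, was not called (0.19 ± 0.24, edgeR adjusted p = 0.65). With the score, 4 collagens, 8 glycoproteins and proteoglycans, 2 fibroblast markers and 2 markers of activated fibroblasts were higher. The part of fibroblast number in these differences was not tested.

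**Figure D3:**
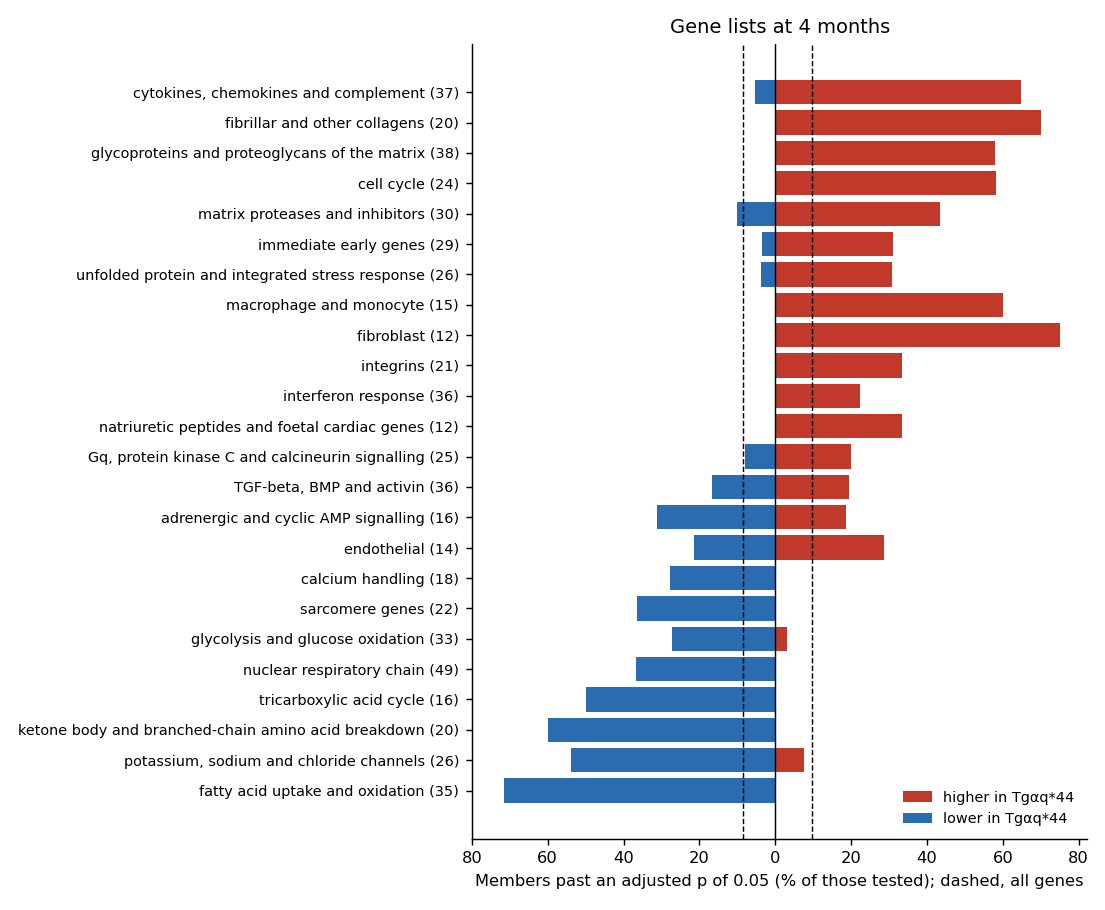
Share of the tested members of 24 gene lists that were higher (red, to the right) or lower (blue, to the left) in Tgαq*44 than in FVB mice at 4 months at an edgeR adjusted p under 0.05, in percent, with the number of members tested beside each name. Dashed lines mark the shares over all genes, 9.62% higher and 8.43% lower, and edgeR called 0 members of the lists of fatty acid oxidation and collagens against the direction of the other called members.

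Of the foetal cardiac genes, the natriuretic peptides were higher and the contractile isoforms were not called. Nppa, which encodes atrial natriuretic peptide, was at 35.3, 43.0, 28.4, 45.2 and 65.5 CPM in FVB and 228, 330.3, 207, 278 and 397 CPM in Tgαq*44 mice (2.73 ± 0.39, edgeR adjusted p = 2.1e-06). Its neighbour Nppb, which encodes brain natriuretic peptide, was at 111, 93.3, 164, 149.8 and 154 CPM in FVB and 279.6, 412, 537, 612 and 658 CPM in Tgαq*44 mice (1.89 ± 0.30, edgeR adjusted p = 6.7e-06). Both were higher in each Tgαq*44 mouse than in any FVB mouse. Ankrd1, a stretch-responsive cofactor in the sarcomere, rose by 0.89 and Xirp2, a protein of the intercalated disc, by 0.56 (edgeR adjusted p = 7.8e-05 and 0.0085).

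Myh7, the slow foetal myosin, had a log2 fold change of -0.11 ± 0.18 and was not called, while the adult myosin Myh6 had one of -0.43 ± 0.15 (edgeR adjusted p = 0.035). The latter was lost without the first, the second or the fifth FVB or the first, the second or the third Tgαq*44 mouse (-0.43 to -0.36, edgeR adjusted p = 0.055 to 0.12). Myh7 made up 4.64 ± 0.437% of the Myh6 and Myh7 counts in FVB and 5.70 ± 1.11% in Tgαq*44 mice (SD, n = 5 each), with an exact two-sided permutation p = 0.079. The mice ranged from 4.24 to 5.36% and from 4.38 to 7.41%, so that the groups overlapped. Acta1, skeletal actin, made up 2.70 ± 0.880% of the Acta1 and Actc1 counts in FVB and 4.46 ± 1.61% in Tgαq*44 mice (SD, n = 5 each), with an exact two-sided permutation p = 0.063. The ranges were 1.66 to 3.98% and 2.84 to 7.09%, again with overlap. Myh6 and Myh7 are close in sequence, and reads may be split between them. Of 12 foetal genes tested, 4 were higher and 0 lower in edgeR, with a median of 0.42, and 2 were higher with the score.

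Nppa is also the hallmark of atrial muscle. Of 9 other atrial markers 1 was higher and 2 lower, against 9.62% and 8.43% of all genes. Their summed level was 661 to 919 CPM in FVB and 623 to 903 CPM in Tgαq*44 mice, with overlap. Myl4, the atrial light chain of myosin, was at 0.374 to 2.11 CPM in FVB and 0.811 to 6.74 CPM in Tgαq*44 mice and was not called (0.88 ± 0.52, edgeR adjusted p = 0.26). Dkk3, a secreted relative of Wnt inhibitors, was the higher one, from 2.19 ± 1.09 to 7.82 ± 2.46 CPM (SD, n = 5 each), without overlap (1.82 ± 0.22, edgeR adjusted p = 1.5e-08). Of 8 markers of the conduction system 1 was higher and 4 lower, against 9.62% and 8.43% of all genes. Limma-voom also called 4 lower, and DESeq2 3. Without any 1 mouse 2 to 3 were lower, and with scaling by library totals 2. With the score 1 was lower and 0 higher in edgeR. Of 6 skeletal muscle markers edgeR called 0, with 1 at an unadjusted p under 0.05.

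Sarcomere genes were level or lower. Tcap, the telethonin that caps titin at the Z-disc, was at 595, 734, 372, 524 and 491 CPM in FVB and 190.2, 162, 164, 158 and 142 CPM in Tgαq*44 mice. This was the largest change of the list, without overlap (-1.73 ± 0.17, edgeR adjusted p = 3.0e-10). Tnni3 and Tnnt2, cardiac troponins I and T, had log2 fold changes of -0.48 and -0.43 (edgeR adjusted p = 0.00013 and 0.00095). In edgeR, 0 of 22 were higher and 8 lower, while 6 were lower with scaling by library totals and 3 with the score. Among 18 calcium handling genes 0 were higher and 5 lower, including the calcium pump Atp2a2, at 10724 to 12762 CPM in FVB and 7898 to 9627 CPM in Tgαq*44 mice (-0.41 ± 0.08, edgeR adjusted p = 0.00025). Without the third FVB or the second Tgαq*44 mouse 3 were lower, with scaling by library totals 2 were lower and 1 higher, and with the score edgeR called 0. Pln, the inhibitor of that pump, was not called (0.02 ± 0.15, edgeR adjusted p = 0.95).

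Of 26 genes of potassium, sodium and chloride channels, 14 were lower and 2 higher. Clcn1, a muscle chloride channel, was at 12.8 to 21.9 CPM in FVB and 2.07 to 6.83 CPM in Tgαq*44 mice (-1.70 ± 0.21, edgeR adjusted p = 3.5e-08). Kcnv2, a silent potassium channel subunit, and Hcn4, the pacemaker channel, had log2 fold changes of -1.30 and -1.19 (edgeR adjusted p = 8.1e-05 and 4.7e-05), and neither overlapped. Kcnd2, a channel of the transient outward current, was at -0.64 (edgeR adjusted p = 0.014), lost without the second Tgαq*44 mouse (-0.52, edgeR adjusted p = 0.067). Gja1, the gap junction protein of ventricular muscle, rose by 0.41 (edgeR adjusted p = 0.0036). With scaling by library totals, 7 of the 26 were lower and 3 higher, and with the score 2 were lower and 0 higher in edgeR.

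Genes that take up and burn fatty acids were lower, 25 of 35 of them past the threshold. Cd36, which takes fatty acids into the cell, was at 1292, 1015, 1678, 1208 and 1000.0 CPM in FVB and 823, 728, 778, 857 and 672 CPM in Tgαq*44 mice (-0.68 ± 0.15, edgeR adjusted p = 0.00060). Acot1, a thioesterase, was at 9.11, 6.82, 7.94, 6.25 and 4.17 CPM in FVB and 1.92, 1.83, 2.79, 1.57 and 2.81 CPM in Tgαq*44 mice (-1.66 ± 0.31, edgeR adjusted p = 8.3e-05). In neither did the mice overlap, and Acot1 has near-identical relatives whose reads may be split. Of 35 members 0 were higher and 25 lower in edgeR, and the median was -0.54. The log2 fold changes of all 35 were below 0, from -1.66 to -0.12. With scaling by library totals 16 stayed lower, and with the score 2 were lower. Ppara and Ppargc1a, a receptor and a coactivator that switch these genes on, were at 55.9 and 105 CPM in FVB and 34.3 and 57.3 CPM in Tgαq*44 mice (-0.71 and -0.88, edgeR adjusted p = 0.031 and 0.0045). Ppara did not pass without the third or the fourth FVB or the second or the third Tgαq*44 mouse (-0.67 to -0.62, edgeR adjusted p = 0.057 to 0.089). Pdk4, a brake on glucose oxidation that fasting and glucocorticoids raise, had a log2 fold change of -1.25 ± 0.48 that was not called (edgeR adjusted p = 0.063).

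Of the other fuel pathways, 9 of 33 genes of glycolysis and glucose oxidation were lower and 1 higher. Pfkfb1, which makes the activator of glycolysis fructose 2,6-bisphosphate, was at 50.9, 33.0, 54.8, 40.9 and 46.1 CPM in FVB and 13.3, 12.3, 19.0, 11.5 and 9.75 CPM in Tgαq*44 mice, a fall without overlap (-1.77 ± 0.18, edgeR adjusted p = 3.2e-10). Without the second Tgαq*44 mouse 4 were lower, and without the first, the third or the fourth 5. With scaling by library totals, in a fit of the 4-month libraries alone, or with the score, 3 were lower. In the breakdown of ketone bodies and branched-chain amino acids 12 of 20 were lower, with 4 left under that scaling, in the citric acid cycle 8 of 16, with 5 left, and in the nuclear-encoded respiratory chain 18 of 49, with 9 left. In edgeR, 0 members of these 3 lists were higher, and with the score 4, 1 and 5 were lower. Ckmt2, the mitochondrial creatine kinase, fell by 0.53 and Slc25a4, the heart's carrier of ADP and ATP, by 0.66 on the log2 scale (edgeR adjusted p = 4.0e-05 and 2.1e-05). The mitochondrial share of all counts was 24.3 ± 3.47% in FVB and 23.5 ± 2.96% in Tgαq*44 mice (SD, n = 5 each), with an exact two-sided permutation p = 0.69.

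Among the genes with the largest falls at 4 months were several enzymes. Cyp2b10, a cytochrome P450, was at 17.8, 37.3, 53.2, 39.4 and 26.5 CPM in FVB and 3.01, 3.23, 3.80, 3.20 and 3.03 CPM in Tgαq*44 mice (-3.42 ± 0.39, edgeR adjusted p = 1.4e-08). Acsm5, a synthetase for medium-chain fatty acids, was at 7.67, 8.51, 10.4, 6.25 and 5.94 CPM in FVB and 1.53, 1.40, 1.66, 1.43 and 1.40 CPM in Tgαq*44 mice (-2.37 ± 0.27, edgeR adjusted p = 3.8e-09). The 5 Tgαq*44 mice lay close together in both, well below the FVB mice. Klk1b26, a kallikrein protease of a family of near-identical genes whose reads may be split, had a log2 fold change of -3.38 ± 0.49 (edgeR adjusted p = 1.7e-06). Slc12a3, a sodium chloride cotransporter, Lvrn, an aminopeptidase, Pitx3, a homeobox factor, and Tmem52 had log2 fold changes of -2.69, -2.70, -2.90 and -2.23, also without overlap.

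Glucocorticoid-responsive genes were lower in Tgαq*44 than in FVB mice at 4 months, and the examples below were also higher in 4-month-old than in older FVB mice by their group means. Fkbp5, a co-chaperone that restrains the glucocorticoid receptor, was at 22.9, 39.4, 65.1, 78.5 and 25.1 CPM in FVB and 6.30, 10.1, 7.07, 6.34 and 7.38 CPM in Tgαq*44 mice. The FVB mice spread over a wide range, all above the Tgαq*44 mice (-2.64 ± 0.37, edgeR adjusted p = 9.6e-07). In the 20 FVB mice of 8 to 14 months, group means of Fkbp5 were between 6.58 and 9.83 CPM. In Tgαq*44 mice they were 10.5 CPM at 8, 11.3 at 10, 27.6 at 12 and 29.2 CPM at 14 months. Hif3a, a subunit of hypoxia-inducible factors, was at 14.0, 22.3, 25.3, 25.2 and 12.9 CPM in FVB and 3.40, 2.56, 1.55, 1.96 and 2.36 CPM in Tgαq*44 mice (-3.08 ± 0.34, edgeR adjusted p = 2.1e-09), and the FVB means of the later ages were 1.92 to 3.30 CPM. Ddit4, an inhibitor of the growth kinase mTORC1, was at 43.7, 66.0, 56.0, 20.6 and 34.9 CPM in FVB and 7.18, 10.3, 8.02, 6.29 and 14.7 CPM in Tgαq*44 mice (-2.26 ± 0.38, edgeR adjusted p = 2.8e-05). Cdkn1a, the cell cycle inhibitor p21, was at 72.3, 58.7, 139, 118 and 69.0 CPM in FVB and 16.8, 26.5, 16.7, 18.5 and 39.0 CPM in Tgαq*44 mice (-1.97 ± 0.34, edgeR adjusted p = 4.2e-05). None of these overlapped.

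Of 23 members of the list, 16 were lower and 0 higher in edgeR, against 8.43% and 9.62% of all genes, with a median of -1.32. The list was chosen with this pattern of the series known, so its count is a description. Klf9, Klf15 and Zbtb16, transcription factors induced by the receptor, had log2 fold changes of -1.50, -1.36 and -1.74, and Per1, a clock gene that is also such a target, one of -1.41 (edgeR adjusted p = 0.0035). The receptor itself, Nr3c1, was at 32.7 ± 7.30 CPM in FVB and 41.8 ± 4.24 CPM in Tgαq*44 mice (SD, n = 5 each) and was not called (0.35 ± 0.15, edgeR adjusted p = 0.087). Sgk1, another target, was not called (-0.27 ± 0.20, edgeR adjusted p = 0.39). Of the clock genes, 1 of 18 was higher and 4 were lower, against 9.62% and 8.43% of all genes. With the score, 0 lower ones were left in edgeR. Per1 is also a gene of the score, so that covariate takes up part of its own change. The core members Arntl (0.28), Per2 (-0.71) and Dbp (-0.67) were not called.

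Of the 16 lower members, 15 had a RefSeq promoter (Zbtb16 has none), and those of Map3k6 and Mt1 hold the letters GNACANNNTGTNC of a glucocorticoid response element on either strand, as 0.475% of all promoters do (0.537% of genes have such a promoter). The promoter of Map3k6, a stress-responsive kinase gene, at chr4:133240568-133240867, plus strand, is shown with the letters in capitals.
Map3k6: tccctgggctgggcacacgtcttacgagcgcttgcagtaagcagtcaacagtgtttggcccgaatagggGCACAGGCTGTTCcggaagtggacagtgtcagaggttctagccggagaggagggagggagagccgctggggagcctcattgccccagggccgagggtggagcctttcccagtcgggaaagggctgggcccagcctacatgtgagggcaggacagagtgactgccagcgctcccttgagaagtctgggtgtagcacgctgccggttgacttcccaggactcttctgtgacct
Map3k6 was at 24.9, 44.6, 49.3, 54.2 and 32.0 CPM in FVB and 10.1, 11.2, 8.02, 8.82 and 11.7 CPM in Tgαq*44 mice, without overlap (-2.05 ± 0.33, edgeR adjusted p = 1.1e-05).

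Genes of serine, one-carbon and asparagine synthesis, targets of the integrated stress response, were higher in part. Asns, asparagine synthetase, was at 2.00, 1.96, 2.62, 2.39 and 2.50 CPM in FVB and 8.49, 15.2, 7.73, 8.68 and 9.75 CPM in Tgαq*44 mice (2.12 ± 0.22, edgeR adjusted p = 5.8e-10). Mthfd2, a mitochondrial enzyme of the folate cycle, was at 2.56, 1.49, 1.12, 2.32 and 2.71 CPM in FVB and 7.67, 12.9, 4.69, 7.96 and 9.16 CPM in Tgαq*44 mice (2.07 ± 0.25, edgeR adjusted p = 3.1e-08). The second Tgαq*44 mouse was highest in both, and the groups were apart. Phgdh and Psat1, the first enzymes of serine synthesis, rose by 0.92 and 0.69, and Trib3, a pseudokinase, by 0.84 (edgeR adjusted p = 0.027, 0.031 and 0.027). These smaller rises were lost for Phgdh without the first or the fifth FVB or the second, the fourth or the fifth Tgαq*44 mouse (0.79 to 0.88, edgeR adjusted p = 0.055 to 0.073), for Psat1 without the first, the second or the fifth FVB or the second or the fifth Tgαq*44 mouse (0.59 to 0.65, edgeR adjusted p = 0.059 to 0.10) and for Trib3 without the first or the third FVB or the first, the second or the fifth Tgαq*44 mouse (0.71 to 0.79, edgeR adjusted p = 0.059 to 0.080). Atf4, the transcription factor that drives this response and is regulated mainly in translation, was not called (0.17 ± 0.15, edgeR adjusted p = 0.49), nor was Ddit3 (0.30). Of 26 genes of the unfolded protein and integrated stress response, 8 were higher and 1 lower (median 0.30). Without the second Tgαq*44 mouse 3 were higher, without the fifth 4, without the first FVB mouse 5, with limma-voom 5 and with the score 3. Hspa5, the main chaperone of the endoplasmic reticulum, was not called (-0.16 ± 0.12), and Herpud1, which takes part in the disposal of misfolded proteins, was the lower one (-1.06 ± 0.14, edgeR adjusted p = 1.0e-07).

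Atf4 acts through an amino-acid response element. The letters TGATGNAA of this element stand, on either strand, in the promoters of Asns and Trib3, out of 8 higher members that all had a promoter, and in 3.97% of all promoters (4.51% of genes have such a promoter). Both are shown with the letters in capitals, Asns from chr6:7693160-7693459 and Trib3 from chr2:152344011-152344310, both on the minus strand. In Trib3 the element is on the other strand and reads TTACATCA.
Asns: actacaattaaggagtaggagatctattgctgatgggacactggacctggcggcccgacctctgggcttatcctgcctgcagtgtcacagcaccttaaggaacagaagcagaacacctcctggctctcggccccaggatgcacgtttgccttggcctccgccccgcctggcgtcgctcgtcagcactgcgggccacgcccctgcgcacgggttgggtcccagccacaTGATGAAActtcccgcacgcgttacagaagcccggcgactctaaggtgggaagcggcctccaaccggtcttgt
Trib3: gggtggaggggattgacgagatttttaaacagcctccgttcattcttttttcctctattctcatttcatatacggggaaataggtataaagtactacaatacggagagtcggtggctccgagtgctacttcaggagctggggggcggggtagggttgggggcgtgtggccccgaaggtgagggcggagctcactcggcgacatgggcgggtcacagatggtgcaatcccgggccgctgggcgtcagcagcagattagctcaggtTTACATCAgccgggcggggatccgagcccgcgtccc

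Genes of cell division were higher at low levels. Mki67, a protein of dividing cells, was at 2.22, 2.43, 1.03, 2.39 and 3.02 CPM in FVB and 4.93, 10.3, 6.83, 9.30 and 8.20 CPM in Tgαq*44 mice (1.83 ± 0.46, edgeR adjusted p = 0.0037). Top2a, a topoisomerase of dividing cells, was at 0.209 to 0.703 CPM in FVB and 0.986 to 3.05 CPM in Tgαq*44 mice (1.96 ± 0.49, edgeR adjusted p = 0.0034). Kntc1, part of the kinetochore checkpoint, rose by 2.71 ± 0.62 (edgeR adjusted p = 0.0012). In all 3 the groups were apart. Of 24 cell cycle genes, 14 were higher and 0 lower in edgeR (median 0.92), and Pcna (0.02) and Ccnd1 (0.30) were not called. Without the second Tgαq*44 mouse 7 were higher, without the third FVB mouse 9, and with limma-voom 10. With the score edgeR called 0, and 1 had an unadjusted p under 0.05. Of 20 senescence and p53 targets 4 were higher and 5 lower, and Cdkn1a, described above, was the lowest of them. Without the third FVB mouse 3 of these were lower, and with the score 3 were higher and 0 lower in edgeR. Cdkn1a is itself a gene of the score, so that covariate takes up part of its own change.

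Secreted growth factors of the TGF-β family moved in both directions. Gdf15, a stress cytokine, was at 3.11, 4.59, 3.18, 6.89 and 5.21 CPM in FVB and 9.92, 17.4, 17.6, 24.2 and 36.3 CPM in Tgαq*44 mice (2.17 ± 0.46, edgeR adjusted p = 0.00060). Mstn, myostatin, which restrains muscle growth, was at 0.667, 0.743, 1.50, 1.41 and 0.626 CPM in FVB and 0.110, 0.244, 0.178, 0.0954 and 0.0738 CPM in Tgαq*44 mice (-2.77 ± 0.56, edgeR adjusted p = 0.00030). Neither overlapped, and Mstn was near the limit of detection. Tgfb2 rose by 1.03 and Fstl1, a secreted glycoprotein of injured hearts, by 1.29 (edgeR adjusted p = 8.7e-07 and 8.7e-09), while Tgfb1 was not called (0.50 ± 0.20, edgeR adjusted p = 0.082). Of 36 members 7 were higher and 6 lower, and with the score 4 and 0 in edgeR. Of 22 Wnt genes 7 were higher and 3 lower, including the Wnt antagonist Sfrp2, at 1.78, 0.743, 0.561, 1.12 and 0.417 CPM in FVB and 2.90, 3.42, 2.44, 1.62 and 3.54 CPM in Tgαq*44 mice with the lowest Tgαq*44 mouse below the highest FVB mouse (1.59 ± 0.30, edgeR adjusted p = 0.00011). With the score, 2 Wnt genes were higher and 0 lower in edgeR.

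Endothelial genes moved in both directions. Aplnr, the apelin receptor of growing vessels, was at 42.0, 43.1, 17.3, 24.5 and 41.9 CPM in FVB and 168, 124, 121, 130.3 and 133 CPM in Tgαq*44 mice (2.00 ± 0.23, edgeR adjusted p = 1.4e-08). Rgcc, a cell cycle regulator typical of cardiac capillaries, was at 73.2, 80.4, 88.1, 52.1 and 30.8 CPM in FVB and 23.2, 20.4, 17.9, 13.1 and 21.3 CPM in Tgαq*44 mice (-1.76 ± 0.26, edgeR adjusted p = 2.1e-06). The first was higher and the second lower in every Tgαq*44 mouse. Car4, a carbonic anhydrase of capillaries, fell by 1.00 on the log2 scale, and Kdr, the main VEGF receptor, rose by 0.52 (edgeR adjusted p = 0.00023 and 0.0042). Cdh5, the cadherin of endothelial junctions, was not called (0.15 ± 0.13). Of 14 endothelial markers 4 were higher and 3 lower, and the summed level was 2004 to 2345 CPM in FVB and 1936 to 2246 CPM in Tgαq*44 mice, which overlapped. With the score 2 were higher and 0 lower in edgeR. Without it, 0 of 9 pericyte and 0 of 9 smooth muscle markers were called, with 2 of each at an unadjusted p under 0.05. Limma-voom called 1 pericyte marker higher, DESeq2 called 1 smooth muscle marker lower, and scaling by library totals called 3 pericyte markers higher. Krt18, a keratin of mesothelial cells, rose from 0.0935 to 0.938 CPM in FVB mice to 0.951 to 1.91 CPM in Tgαq*44 mice (1.98 ± 0.40, edgeR adjusted p = 0.00029), while Msln, Upk3b and Wt1, which define those cells, were not called (1.01, 0.49 and 0.50).

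Aldh1a2, which makes retinoic acid and is known from the epicardium of injured hearts, was at 3.22, 3.65, 2.52, 2.74 and 3.96 CPM in FVB and 8.06, 14.5, 19.1, 14.4 and 12.3 CPM in Tgαq*44 mice (2.09 ± 0.23, edgeR adjusted p = 2.3e-09). Adh1, an alcohol dehydrogenase that also oxidises retinol, was at 21.1, 26.4, 28.6, 28.8 and 26.1 CPM in FVB and 8.33, 9.52, 7.73, 5.96 and 7.31 CPM in Tgαq*44 mice (-1.76 ± 0.26, edgeR adjusted p = 2.3e-06). One was thus higher and the other lower in each Tgαq*44 mouse. Sox9, a transcription factor of valves and cartilage, rose by 1.40 and Pdpn, a membrane glycoprotein of lymphatic vessels and of activated fibroblasts, by 1.26 on the log2 scale (edgeR adjusted p = 1.4e-05 and 7.3e-08). The other 5 lymphatic markers, Lyve1 and Prox1 (0.10) among them, were not called. Of 19 genes of xenobiotic and steroid metabolism, 2 were higher and 7 lower, against 9.62% and 8.43% of all genes, and with the score 1 and 1.

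Of 22 autophagy and proteolysis genes 1 was higher and 8 lower, led by Foxo3, a transcription factor that drives protein breakdown (-0.86 ± 0.16, edgeR adjusted p = 0.00012). Fbxo32, a muscle ubiquitin ligase, was at -0.30 and not called. With the score edgeR called 0 of the 22. Of 22 antioxidant genes 2 were higher, with Hmox1, haem oxygenase, at 0.73 ± 0.15 (edgeR adjusted p = 0.00035), and 4 lower, with Prdx5, a peroxiredoxin, at -0.74 ± 0.08 (edgeR adjusted p = 7.6e-09). Of 17 heat shock genes 2 were higher, and of 18 hypoxia targets 2 were higher and 4 lower, among the latter Hif3a, given above. The shares higher were 9.09% (antioxidant), 11.8% (heat shock) and 11.1% (hypoxia), near the 9.62% of all genes. The shares lower were 18.2%, 0 and 22.2%, against 8.43% of all genes. With the score, edgeR called 2 antioxidant genes lower, 0 heat shock genes and 1 hypoxia target higher. Hif3a is itself a gene of the score, so that covariate takes up part of its own change. Vegfa, the main inducer of vessels under hypoxia, was not called (0.31 ± 0.13).

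The 661 DEGs of 4 months were then followed in the mean strain difference of 8 to 14 months, which comes from 40 other mice. Of the 661, 439 (66.4%) passed an adjusted p of 0.05 there in the same direction, 60 (9.08%) in the opposite direction, and 162 (24.5%) did not pass. At the later ages 61.9% of all genes passed (30.7% higher, 31.2% lower), and the 499 shared genes are 75.5% of the 661 and 5.33% of the 9362. Of the 452 higher DEGs, 318 (70.4%) were higher later and 30 lower, and of the 209 lower DEGs, 121 (57.9%) were lower later and 30 higher. As DEGs at every later age in the same direction, 170 of the 661 were found, and 241 (36.5%) were a DEG at no later age.

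**Figure D4:**
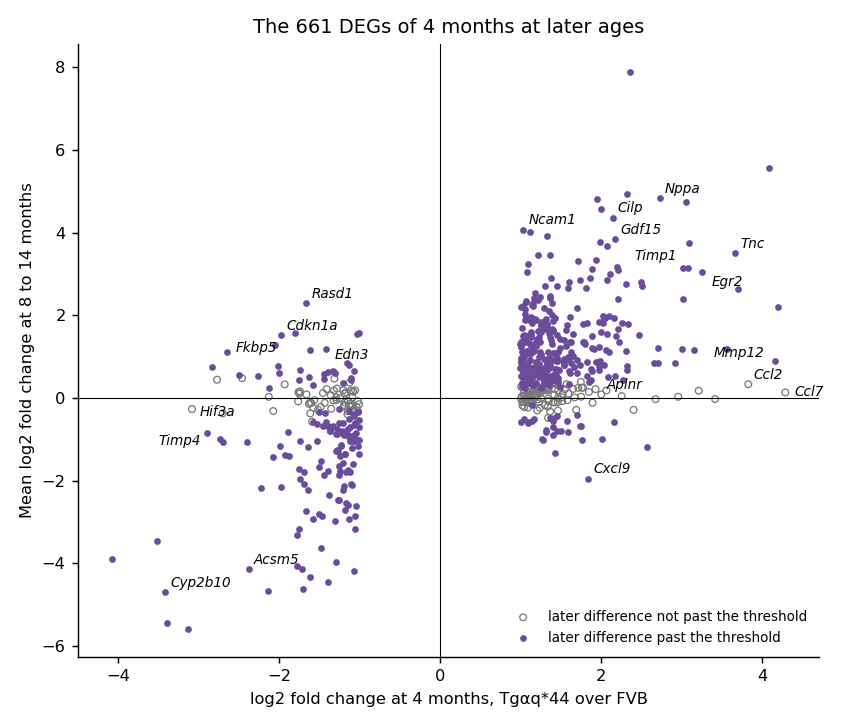
The 661 DEGs of 4 months by their log2 fold change at 4 months (horizontal axis) and the mean log2 fold change of 8, 10, 12 and 14 months (vertical axis), each point a gene, filled where the later difference passed an edgeR adjusted p of 0.05. Points in the lower left and upper right kept their direction, and Fkbp5 and Cdkn1a lie in the upper left, lower at 4 months and higher later.

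The difference between the 4-month and the later strain difference was tested for each gene in the same model, and 3124 of 15129 genes (20.6%) passed, 1548 above (10.2%) and 1576 below (10.4%) the later difference. The chemokines led the first kind. Ccl7 exceeded its later strain difference by 4.16 ± 0.46 on the log2 scale (edgeR adjusted p = 2.5e-09). Its mean in Tgαq*44 mice was 4.54 CPM at 4 months, 3.65 at 8, 2.39 at 10, 0.981 at 12 and 0.841 CPM at 14 months. In FVB mice it was 0.230 CPM at 4 months and 1.25 to 2.20 CPM at the later ages. Thus at 4 months the FVB level was the lowest and the Tgαq*44 level the highest of any age. The same held for Ccl2, with 17.1 CPM in Tgαq*44 mice of 4 months and 3.13 CPM at 14 months, against 1.22 CPM in FVB mice of 4 months and 6.63 CPM at 14 months (3.50 ± 0.39, edgeR adjusted p = 2.9e-09). Mmp12 (3.26), Tnf (3.04), Ccl12 (3.44) and Ccl22 (2.93) also exceeded their later differences. Cxcl9 and Cxcl10 were higher in Tgαq*44 mice at 4 months and lower in the mean of the later ages, with log2 fold changes of -1.95 and -1.20 there (edgeR adjusted p = 1.7e-07 and 0.00071). Taken age by age in edgeR, Cxcl9 passed at 10, 12 and 14 months and not at 8, and Cxcl10 at 14 months alone. Vwc2, a secreted BMP antagonist, and Ptchd3 stood above their later strain differences as well, with -1.07 and -1.39 at 4 months and -4.18 and -4.44 later.

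Of the second kind, most of the genes farthest below their later strain difference were lower at 4 months and higher later. Rasd1, a small G protein induced by dexamethasone, was at 10.6, 15.9, 15.0, 9.35 and 5.53 CPM in FVB and 2.47, 3.97, 3.74, 2.77 and 5.09 CPM in Tgαq*44 mice of 4 months (-1.67 ± 0.26, edgeR adjusted p = 6.7e-06). At 14 months its means were 2.68 CPM in FVB and 25.5 CPM in Tgαq*44 mice, and the difference from the later ages was -3.95 ± 0.30 (edgeR adjusted p = 2.7e-13). Cdkn1a had later means of 19.7 to 44.0 CPM in FVB and 60.7 to 115 CPM in Tgαq*44 mice, so that its strain difference changed sign (1.52 ± 0.17 later, edgeR adjusted p = 1.7e-10). In the mean of the later ages Fkbp5, Map3k6, Tent5b and Fam107a had strain differences above 0 too, of 1.10, 1.27, 1.58 and 0.56 on the log2 scale. At single ages, Tent5b passed at each, Fkbp5 and Map3k6 at 12 and 14 months and not at 8 or 10, and Fam107a at 14 months alone in edgeR, with a log2 fold change of -0.51 at 10 and 2.26 at 14 months. As given above, Tgαq*44 mice of 14 months also had high glucocorticoid scores. Adamtsl2, a secreted protein of the microfibrils, was at -0.78 at 4 months, a call lost without the second or the fifth FVB or the first, the third or the fourth Tgαq*44 mouse (-0.74 to -0.64, edgeR adjusted p = 0.052 to 0.088), and at 2.40 later (edgeR adjusted p = 0.025 and 4.5e-21). Ncam1, a cell adhesion molecule, and Col12a1, a collagen on the surface of fibrils, had strain differences of 1.03 and 0.87 at 4 months and 4.07 and 3.83 later.

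Other genes named above belonged to either kind or to neither. The strain difference of Nppa was 2.73 at 4 months and 4.84 later (difference -2.11 ± 0.42, edgeR adjusted p = 0.00030), that of Gdf15 2.17 and 3.85 (edgeR adjusted p = 0.015 for their difference, lost without the fourth FVB mouse (-1.47, edgeR adjusted p = 0.060)), and that of Cilp 2.14 and 4.36 (edgeR adjusted p = 4.4e-05). For Egr2 it was 3.26 and 3.05, for Timp1 3.08 and 3.15 and for Tnc 3.66 and 3.51, and these differences of 0.21 ± 0.60, -0.07 ± 0.42 and 0.15 ± 0.67 were not called. Aplnr, with 2.00 at 4 months, had a later strain difference of 0.09 ± 0.11 that was not called (difference 1.92, edgeR adjusted p = 2.6e-07), and its FVB mean was 33.8 CPM at 4 months and 72.2 to 105 CPM later. Edn3 turned from -1.42 to 1.19 (difference -2.61 ± 0.28, edgeR adjusted p = 1.9e-09). Atp2a2 and Adra1a were lower at 4 months and lower still later, by a further 0.53 and 1.36 on the log2 scale (edgeR adjusted p = 3.1e-05 and 3.1e-06). Ace, which was not called at 4 months, had a later strain difference of 1.70, and Pln, not called either, fell by 1.00 later on the log2 scale (edgeR adjusted p = 2.1e-23 and 3.1e-16). Their 4-month differences stood -1.65 and 1.02 from these (edgeR adjusted p = 4.5e-09 and 1.4e-05). Eln and Lox, not called at 4 months either, were higher later by 1.33 and 1.61 (edgeR adjusted p = 4.2e-17 and 9.3e-14). Of the 22 such differences given here that passed, 13 also passed with the glucocorticoid score as a covariate, and those of Ccl12, Ccl22, Cxcl9, Cxcl10, Mmp12, Tnf, Aplnr, Gdf15 and Lox did not. Cdkn1a, which is among the 13, is itself a gene of the score, so that covariate takes up part of its own change.

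**Figure D5:**
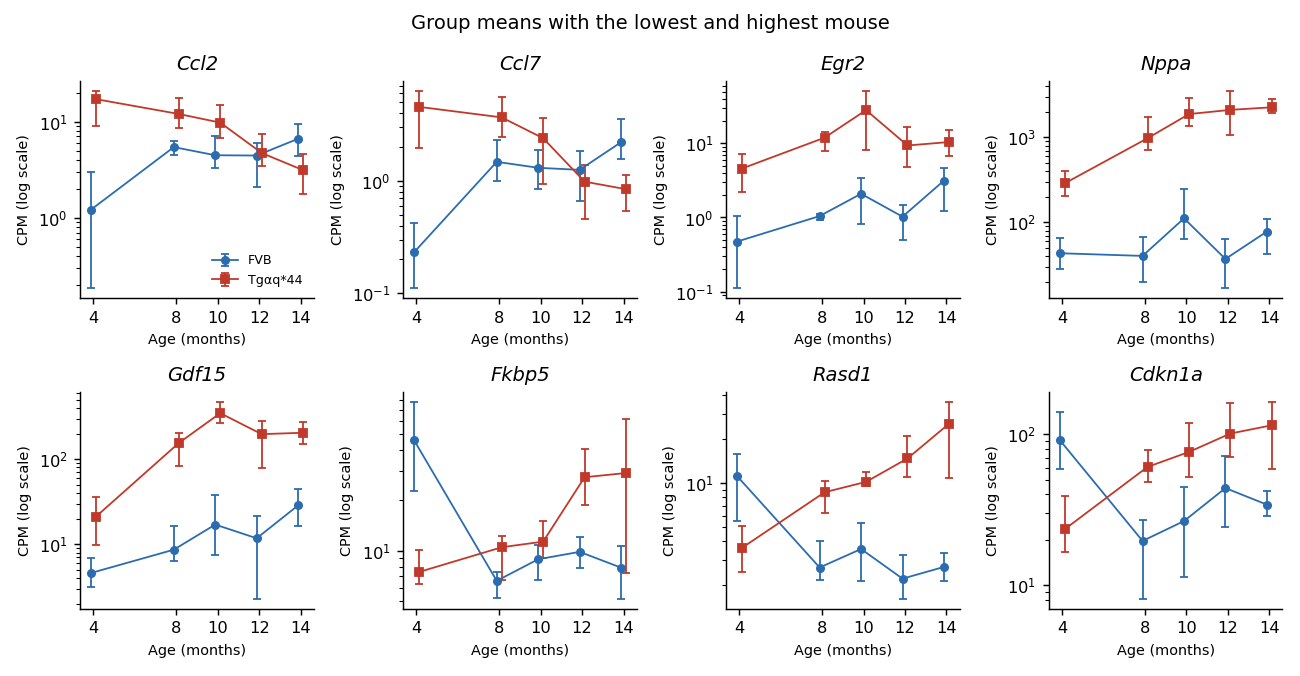
Mean level of 8 genes in CPM (vertical axis, log scale) at 4, 8, 10, 12 and 14 months in FVB (blue) and Tgαq*44 mice (red). Bars run from the lowest to the highest of the 5 mice, and the plots show Ccl2 and Ccl7 higher in Tgαq*44 mice at 4 months and lower at 14, Nppa and Gdf15 farther apart at the later ages than at 4 months, and Fkbp5, Rasd1 and Cdkn1a with their lines crossing after 4 months.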

How the data were processed

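Female FVB and Tgαq*44 mice were compared at 4 months, with groups taken from the deposited titles. The values are raw read counts per gene, which the authors deposited after trimming with cutadapt and counting with HTSeq on GRCm38.p6 (versions and strand setting not given in the sources used here). Their own limma-voom analysis was not used. Here edgeR 4.0.16 (R 4.3.3) fitted quasi-likelihood models with TMM factors to 10 group means of all 50 libraries, for 15129 genes that exceeded 0.5 CPM in over 3 mice of at least 1 group, with Benjamini-Hochberg adjustment over these. Without strand, overlapping and antisense genes cannot be told apart. Single shares were compared with exact two-sided permutation tests. The edgeR test of the strains at 4 months was checked on simulated data. The members and lists were chosen with earlier results of these data known. Named genes are the 20 higher and 15 lower DEGs with the largest fold change, no overlap and at least 1 CPM in a group, called list members, the 10 genes on each side farthest from their later difference, Gnaq and some genes of the study, and some genes that the rule names are not reported here. The alternatives were limma-voom 3.58.1, DESeq2 1.42.0, other scalings and filters, a glucocorticoid covariate, a replicate block and leaving out each mouse. Reads without molecular identifiers are not independent molecules. The edgeR p-values rest on a spread between mice within groups that was estimated over all 10 groups and moderated across genes. With the 4-month libraries alone, 2070 genes passed the adjusted p, against 2730.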

Additional observations from a re-analysis of the deposited data

Results flagged for a closer look

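In 25 of the 360 groups of 5 mice tested, 1 mouse stood far from the other 4, its gap to the nearest of them taking over 0.71 of the range of the group. Chance gives such a mouse in about 1 of 20 groups. The second Tgαq*44 mouse was the one in 8 of these, the highest for Asns (0.729), Cilp (0.726), Clec4n (0.725), Fkbp5 (0.713), Fstl1 (0.799), Loxl2 (0.713) and Pdpn (0.787) and the lowest for Kcnd2 (0.762), each with the gap as a share of the range. The fifth FVB mouse was the highest in 7, for Cma1 (0.733), Ddit3 (0.758), Krt18 (0.711), Tcf21 (0.7901), Tnf (0.784), Vegfa (0.844) and Wt1 (0.835). Of the other FVB mice, the first was the highest for Ccl8 (0.725) and the lowest for Klf15 (0.759), the second was the highest for Tnc (0.893) and the fourth was the highest for Il1b (0.767) and the lowest for Gja1 (0.7796). Of the other Tgαq*44 mice, the first was the highest for Aplnr (0.753) and Myl4 (0.886), the third was the highest for Cyp2b10 (0.721) and the fifth was the highest for Adra1b (0.7998) and Junb (0.801).

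The strain difference at 4 months was unlike that of 8 to 14 months for 22 of 25 named genes at an edgeR adjusted p under 0.05 of that difference, which 20.6% of all genes passed. Since 11 of the 25 were chosen for their rank in it and the others with earlier results known, the count is a description. It was above the later one for Ccl7 (4.16), Cxcl9 (3.79), Cxcl10 (3.77), Ccl2 (3.50), Ccl12 (3.44), Mmp12 (3.26), Tnf (3.04), Ccl22 (2.93), Aplnr (1.92), Adra1a (1.36), Pln (1.02) and Atp2a2 (0.53) on the log2 scale. It was below the later one for Rasd1 (-3.95), Cdkn1a (-3.49), Adamtsl2 (-3.19), Edn3 (-2.61), Cilp (-2.22), Nppa (-2.11), Lox (-1.86), Gdf15 (-1.68), Ace (-1.65) and Eln (-1.34). With the glucocorticoid score as a covariate, 13 of the 22 passed, Cdkn1a, itself a gene of the score, among them.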

How the results depend on the processing

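Without 1 of the 10 mice, 543 to 689 DEGs, 1988 to 2648 genes past the adjusted p and 2482 to 3793 differences from the later ages were found, against 661, 2730 and 3124 with all mice. The lowest of the first came without the second Tgαq*44 mouse. Under the glucocorticoid covariate the counts were 198, 508 and 905. The fits with limma-voom, DESeq2, median-of-ratios factors, other low-count filters, no mitochondrial genes or the 4-month libraries alone gave 610 to 697 DEGs, and scaling by library totals, chosen after seeing the data, gave 788. The mouse numbers of the labels were not taken as a pairing, for which each same-numbered pair had to correlate over 0.1 in its deviations across genes. The correlations were 0.027 to 0.41 (4 of 5 over 0.1), against -0.43 to 0.18 between other numbers, and 4 FVB and 4 Tgαq*44 mice were nearest to their own number, a hint from the data and not from the design. With the number as a replicate block, 690 DEGs, 3296 genes and 3769 differences were found. The collagen share differed by 0.123 percentage points in the block, with an exact sign-flip p = 0.0625, the smallest that 5 pairs allow, and by 0.0965 to 0.138 points without 1 mouse.

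Of the other shares, that of mitochondrial counts differed between the strains by -2.02 to 0.31 percentage points without 1 mouse, turning from -0.81 to 0.31 without the third FVB mouse (exact permutation p = 0.92). The Myh7 share differed by 0.636 to 1.39 points. Its unadjusted p was under 0.05 without the fourth FVB (1.24, exact permutation p = 0.048) or the fourth Tgαq*44 mouse (1.39, exact permutation p = 0.032). The Acta1 share differed by 1.11 to 2.17 points. Its unadjusted p was under 0.05 without the second FVB (2.09, exact permutation p = 0.032) or the third Tgαq*44 mouse (2.17, exact permutation p = 0.048). The values without a mouse were not adjusted over the 4 shares tested. With all mice, the adjusted exact permutation p was 0.11 for the Myh7 and for the Acta1 share.

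Of 201 results for named genes, 162 passed, and 141 of these passed without each mouse in turn. Those lost are given beside their values, except Col12a1, lost without the second, the fourth or the fifth FVB or the second or the fourth Tgαq*44 mouse (0.62 to 0.85), and Vwc2, lost without the third or the fourth FVB or the first, the second or the third Tgαq*44 mouse (-1.07 to -0.84). With the glucocorticoid covariate 90 lost their call in the same direction and 6 turned in sign, none of them past the threshold there, Adamtsl2 (0.054), Cxcl9 (-0.060), Fam107a (0.23), Per1 (0.069, a gene of the score), Vwc2 (0.39) and Zfp36 (0.19). Limma-voom lost 8 calls, among them Fos and Cxcl9, and no low-count filter 12. Library totals lost 6 and added 7. The cause was not tested.

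Depth limits the rare genes. In FVB mice of 4 months, Ccl7, Mmp12, Tnf, Col8a2, Ccl22, Ch25h, Cxcl5 and Cxcl10, among others, had under 10 reads a library. The sequencing run of each library is not given in the sources used here, so a batch could not be examined. With 5 mice a group, the exact test cannot go below 0.0079.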
